A study of Homo sapiens with 4 samples.

Results

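The 48 genes described here encode proteins that detect double-strand breaks in DNA, signal them to the cell cycle and repair them, including the Fanconi genes. They were chosen by gene symbol and are 48 of the 58219 genes measured. The levels were measured in total RNA of WI-38 cells, normal fibroblasts from human embryonic lung, which had been made senescent with ionizing radiation (10 Gy) and were collected on day 8. Of the 4 libraries, 2 (A and B) came from cells given siG3BP1, a small interfering RNA against G3BP1, and 2 (A and B) from cells given siCTL, a scrambled control. The labels do not state that A and B are separate cultures, so p-values measure only the spread between these libraries, which may be technical. Every cell in both groups was irradiated, and neither unirradiated nor proliferating cells are part of the comparison, which asks what loss of G3BP1, an RNA-binding protein of stress granules, does to RNA levels in senescent cells.

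A double-strand break is first bound by a complex that activates the kinase ATM, while resected single-stranded DNA activates the kinase ATR. Both kinases phosphorylate checkpoint kinases that hold the cell cycle. The break is then rejoined directly by end joining or copied from a sister chromatid by homologous recombination, and Fanconi proteins direct the repair of crosslinks between the strands. Ionizing radiation makes such breaks, and persistent signaling from them is a known feature of senescent cells. Many recombination and Fanconi genes are transcribed mainly in S phase under E2F factors.

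The genes differ widely in base composition, and stretches of 2 of them show that range. Both are the middle 120 bases of the gene's longest coding exon in GRCh38, written on the coding strand with every G and C in capitals. They are shown because ATR has the lowest and RAD9A the highest exonic GC content (the share of G and C among all annotated exon bases) of the genes that passed the test described below. The ATR stretch lies at chr3:142562611-142562730 on the minus strand and holds 39.2% G and C. The RAD9A stretch lies at chr11:67397223-67397342 on the plus strand and holds 62.5%.
ATR: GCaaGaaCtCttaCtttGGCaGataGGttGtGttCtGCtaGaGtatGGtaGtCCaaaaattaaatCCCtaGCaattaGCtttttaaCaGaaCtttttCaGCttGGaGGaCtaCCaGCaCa
RAD9A: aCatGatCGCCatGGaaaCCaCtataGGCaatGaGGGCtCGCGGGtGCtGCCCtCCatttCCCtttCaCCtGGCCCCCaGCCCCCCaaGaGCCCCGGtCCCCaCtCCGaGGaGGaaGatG

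The promoters of these genes were searched for letters that E2F factors can bind (TTTGGCGC, TTTCGCGC, TTTCCCGC or TTTGCCGC, on either strand). RefSeq promoter windows of GRCh38.p14, which run from 250 bases before to 50 bases after the start site, were matched for 42 of the 48 genes. The E2F letters were found in 8 of these 42 (19.05%), against 3.33% of all 27305 promoters. The 8 were CLSPN, EXO1, FANCA, FANCC, FANCD2, TOPBP1, XRCC2 and XRCC6. The letters TTTGAA, the cell cycle homology region of genes expressed late in the cycle, were found in 4 of the 42 (9.52%), against 15.43% of all promoters. The matches are shown with 10 bases on each side, 5′ to 3′ on the gene's strand and with the matched letters in capitals, for the 3 matched genes that fell after siG3BP1. They lie at chr1:241848198-241848225 for EXO1, chr1:35769966-35769993 for CLSPN and chr3:133661931-133661958 for TOPBP1. FANCA, FANCC, FANCD2 and XRCC6 also held the letters but did not pass the test, and XRCC2 was not tested. A match is a description of letters and not evidence of binding.
EXO1: aaggtcagccTTTCGCGCgctgtgtagg
CLSPN: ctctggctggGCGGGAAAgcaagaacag
TOPBP1: cgcgcggttgGCGCGAAAgtcggttccc

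The values are normalized reads, that is, the reads counted in a gene after division by the size factor of its library. The reads in genes came to 17169469 and 19233994 in siG3BP1 A and B and to 16944404 and 22745000 in siCTL A and B. G3BP1 itself (chr5:151771045-151812785) was at 201 and 271 normalized reads in siG3BP1 A and B, against 2675 and 2522 in siCTL A and B. The log2 fold change was thus -3.47 (SE 0.34, limma adjusted p = 9.10e-21, by the Benjamini-Hochberg method). All 12 fibroblast markers were measured, and their summed level was 711800 and 729200 in siG3BP1 A and B, against 507500 and 692000 in siCTL A and B. Summed epithelial markers (KRT5, KRT14 and SFTPC at 0) were 148 and 334 in siG3BP1, against 43.9 and 137 in siCTL. For endothelial markers (CDH5 at 0) the sums were 1009 and 1472 in siG3BP1, against 4480 and 3019 in siCTL. Each of these sums came mostly from a single gene. These genes were KRT19 (mean of 156 over the 4 libraries) for the epithelial and TEK (mean of 2449) for the endothelial markers. Summed immune markers (TYROBP at 0) and muscle markers (MYOD1 at 0) stayed under 70 in every library.

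Most of the repair genes fell in the senescent cells given siG3BP1. Of the 48 genes, 45 had a mean of at least 10 normalized reads over the 4 libraries and were tested with limma on log2(value + 0.5), with p-values adjusted over all 13422 genes tested and a threshold of 0.05. Of these 45, 29 fell (64.4%), 2 rose (4.44%) and 14 did not pass. Over all genes tested, 30.5% fell and 25.9% rose. The median log2 fold change of the 45 was -1.12, against 0.04 over all genes tested. The groups did not overlap in 41 of the 45: siG3BP1 was lower in 34 and higher in 7, where 40.5% of all genes were lower and 42.8% higher without overlap. Fold changes are on the log2(value + 0.5) scale, on which the changes of low genes come out too small. The standard errors (SE) came wholly from the trend of spread with level over all genes tested. An SE printed here is thus not the spread of that gene's own libraries. In bulk RNA, fewer cells with a transcript and less of it per cell cannot be told apart.

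**Figure D1:**
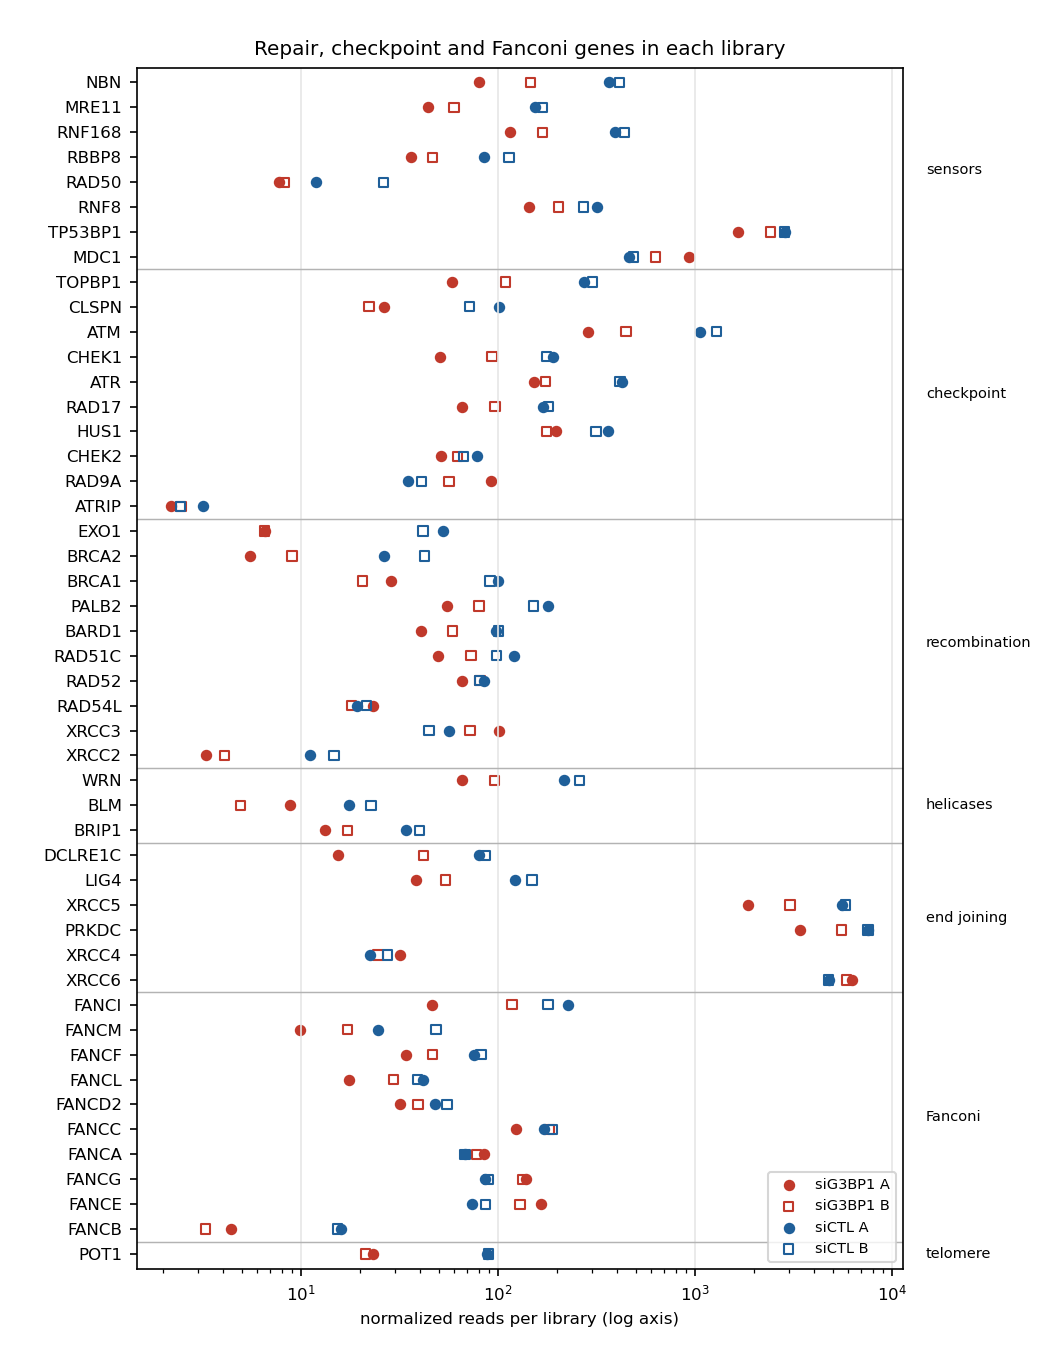
Normalized reads of each of the 48 genes in each of the 4 libraries, on a log axis, grouped by role. The siG3BP1 libraries (red) lie left of both siCTL libraries (blue) without overlap in 34 of the 45 tested genes, and FANCE and RAD9A are the genes that passed the test in the other direction.

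These calls were lost when either siCTL library was left out. Without siCTL A none of the 31 calls remained, and 20 of the 45 genes had an unadjusted p under 0.05. Without siCTL B none remained either, with 17 at an unadjusted p under 0.05. Over all genes tested the numbers past the threshold were then 107 lower and 20 higher without siCTL A, and 12 lower and 5 higher without siCTL B. Without siG3BP1 A the calls of BARD1, BRIP1, FANCE, FANCF, FANCI, FANCM, PRKDC, RAD51C, RAD9A and RNF8 were lost. Without siG3BP1 B the call of BLM was lost, while some genes passed that did not pass with all 4 libraries. In these fits the group left with 1 library is assumed to vary like the other. Fits without a siCTL library therefore took their spread from the siG3BP1 libraries alone. Without siCTL A and without siCTL B, the fold change was -1.85 and -1.57 for ATM and -1.29 and -1.23 for XRCC5. For FANCM it was -1.85 and -0.90. With DESeq2 on the recovered reads, BARD1, BLM, BRIP1, FANCE, FANCF, FANCM, RAD51C, RAD9A and RNF8 did not pass.

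The siG3BP1 libraries were themselves unequal. The level in siG3BP1 A was below that in siG3BP1 B for 23 of the 29 genes that fell, and above it for both genes that rose. The median log2 difference of A minus B over the 45 genes was -0.44 in siG3BP1 and -0.07 in siCTL. The balance of calls also depended on scaling. When the libraries were scaled to their total reads, the median of all genes tested moved to -0.29, and 4339 genes fell and 636 rose. The repair genes then stood at 29 lower and 0 higher. With quantile normalization they stood at 25 lower and 5 higher, where 26.4% of all genes were lower and 27.8% higher.

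The changes ran with base composition. Across the 45 genes the log2 fold change and the exonic GC content had a Spearman rho of 0.59, and across the 13350 tested genes with a GC value the rho was 0.80. These are descriptions over genes that share the same 4 libraries. Of the 45 repair genes, 33 (73.3%) had a GC content under 45%, as did 5146 of all 13350 (38.5%). All 29 genes that fell were among those 33. Below 40% GC, 10 of 12 repair genes fell (83.3%), as did 81.3% of all tested genes. Between 40 and 45% GC, 19 of 21 fell (90.5%), against 60.7% of all tested genes. From 45% upward none of the 12 fell, and FANCE (54.2% GC) and RAD9A (61.5% GC) rose. Of all tested genes, 18.3% fell and 11.7% rose between 45 and 50% GC. The shares were 2.75% and 36.1% between 50 and 55%, and 0.384% and 64.45% from 55% upward.

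**Figure D2:**
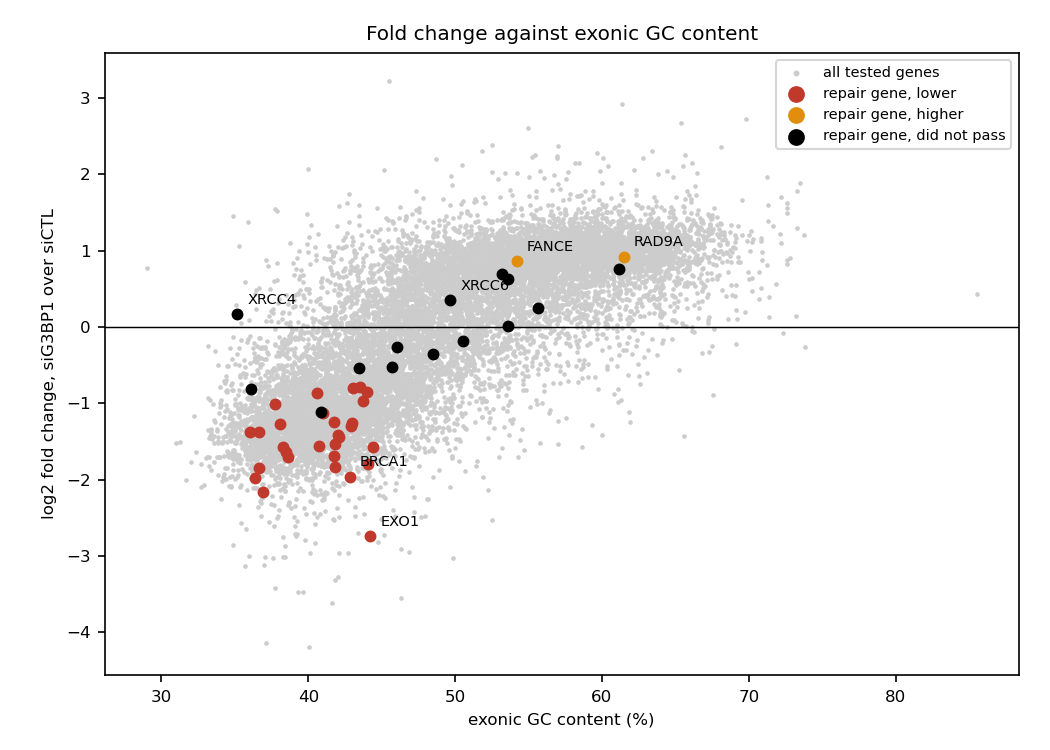
Log2 fold change (siG3BP1 over siCTL) against exonic GC content in percent, for the 45 tested repair genes (large points) over all 13350 tested genes with a GC value (grey). EXO1 lies below most genes of its GC content at -2.74, and XRCC4 lies above them at 0.17.

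**Figure D3:**
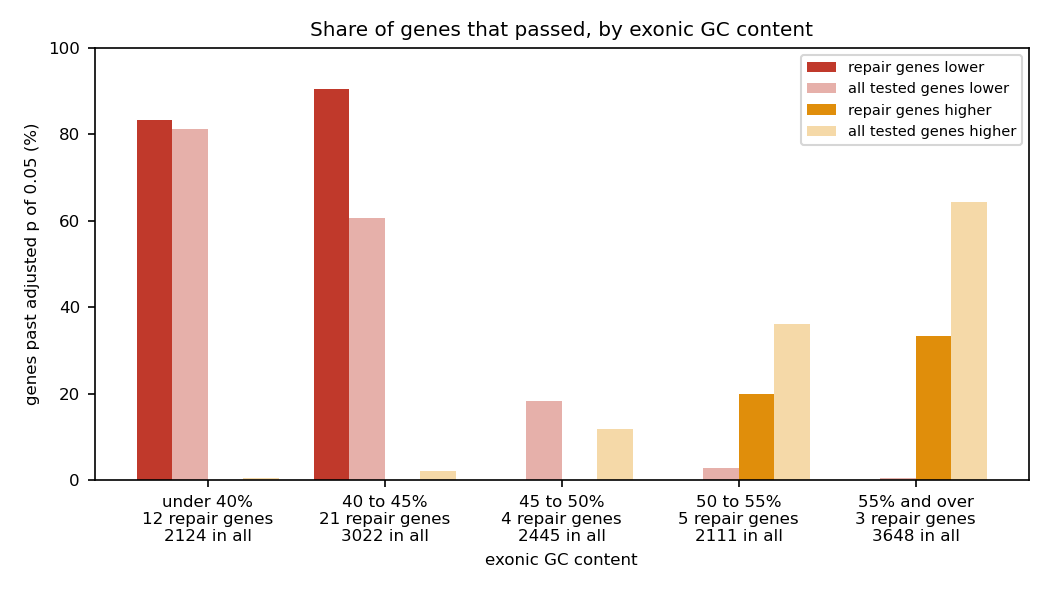
Share of genes past an adjusted p of 0.05 in each range of exonic GC content, with repair genes in dark bars and all tested genes in light bars. Below 40% GC the shares that fell were 83.3% and 81.3%, and from 40 to 45% they were 90.5% and 60.7%.

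When the trend with GC content was removed from each library, no repair gene passed the test. The test changed as well, since the spread now rested partly on each gene's own libraries. The prior degrees of freedom were 4.21, against infinite in the fit reported above. A lost call is therefore not a measure of how far a fold change shrank. The corrected fold change was negative for 33 of the 45 and positive for 12, with a median of -0.28. Over all 13350 genes it was negative for 6530 and positive for 6820, with a median of 0.01. Of the 45, 10 had an unadjusted p under 0.05, and the smallest adjusted p was 0.0628 (limma). Past the threshold over all genes, 1 of 13350 was lower (0.00749%), namely G3BP1, and 0 were higher (0%). Of all 13350 genes, 3775 had an unadjusted p under 0.05. The rho across the 45 genes was -0.01 after the correction. With the letter A or B as a term in the same corrected fit, 9 repair genes were lower (ATM, BRCA1, CLSPN, DCLRE1C, EXO1, NBN, RNF168, TOPBP1 and XRCC5) and 1 was higher (XRCC4), when 14.4% of all genes were lower and 14.7% higher. Whether the letter pairs the libraries is not stated. The GC-corrected values and p-values given below come from the fit without that term. The part of base composition in the changes was not tested further.

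**Figure D4:**
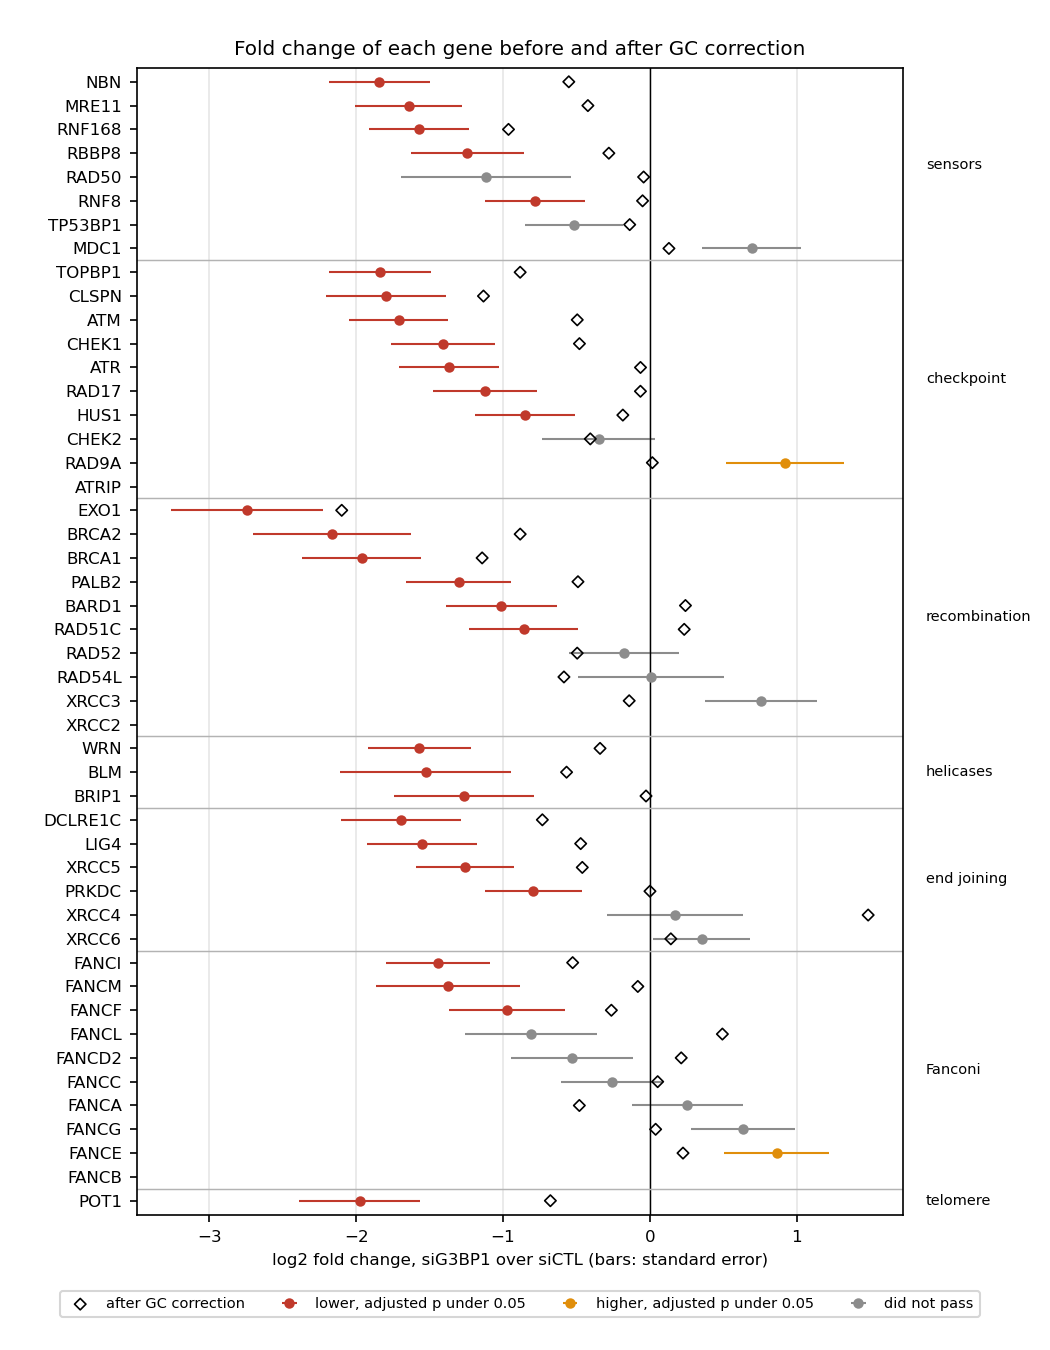
Log2 fold change of each tested gene with its standard error (circles, n = 2 libraries per group), and the value after GC correction (open diamonds). The standard error follows the trend of spread with level over all genes tested, and not the gene's own libraries. The median is -1.12 before the correction and -0.28 after it. EXO1 keeps the lowest value after the correction, at -2.10, while PRKDC and ATR lie near 0.

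Among the 8 genes that sense a break and assemble repair proteins on it, 5 fell (62.5%), none rose and 3 did not pass. Over all genes tested, 30.5% fell and 25.9% rose. The median log2 fold change of the 8 was -1.18. NBN, MRE11 and RAD50 form the complex that binds broken ends and activates ATM. NBN had 80.3 and 146 normalized reads in siG3BP1 A and B, against 366 and 414 in siCTL A and B (log2 fold change -1.84, SE 0.34, limma adjusted p = 7.16e-06, GC-corrected value -0.55). MRE11, the nuclease of the complex, had 44.0 and 59.8 in siG3BP1, against 155 and 168 in siCTL (-1.64, SE 0.37, limma adjusted p = 0.000123, GC-corrected value -0.42). The groups overlapped in neither gene. RAD50, the structural subunit, had 7.70 and 8.19 in siG3BP1 and 12.0 and 26.4 in siCTL, and did not pass (-1.12, SE 0.58, limma adjusted p = 0.0849, GC-corrected value -0.04). Its level is uncertain, since 76.9% of its exonic bases also belong to a read-through gene on the same strand, which is listed at 0 in all 4 libraries.

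RNF168, a ubiquitin ligase that marks chromatin around breaks, had 116 and 169 normalized reads in siG3BP1, against 395 and 438 in siCTL (log2 fold change -1.57, SE 0.34, limma adjusted p = 8.49e-05, with a GC-corrected value of -0.96 and a GC-corrected p of 0.0628). It shared that smallest corrected p with EXO1. RBBP8, which starts the trimming of broken ends, had 36.3 and 46.7 in siG3BP1, against 84.6 and 114 in siCTL (-1.24, SE 0.39, limma adjusted p = 0.00450, GC-corrected value -0.28). RNF8, the ubiquitin ligase that acts before RNF168, fell by 0.78 (GC-corrected value -0.05). TP53BP1, which holds back the trimming of ends, and MDC1, the adaptor that recruits RNF8, did not pass, at -0.52 and 0.69 (GC-corrected values -0.14 and 0.13). MDC1 (53.2% GC) was the only gene of the group with a positive fold change, with 931 and 631 in siG3BP1 and 461 and 486 in siCTL.

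Of the 10 checkpoint genes, 9 were tested, and 7 fell (77.8%), 1 rose (11.1%) and 1 did not pass. The shares over all genes tested were 30.5% and 25.9%. The median log2 fold change of the 9 was -1.37. TOPBP1, an activator of ATR, had 58.3 and 109 normalized reads in siG3BP1, against 272 and 301 in siCTL (log2 fold change -1.84, SE 0.35, limma adjusted p = 1.07e-05, GC-corrected value -0.88). ATM had 286 and 447 in siG3BP1, against 1062 and 1288 in siCTL (-1.71, SE 0.34, limma adjusted p = 2.03e-05, GC-corrected value -0.49). CLSPN, the adaptor through which ATR activates CHEK1, had 26.4 and 22.1 in siG3BP1, against 101 and 71.7 in siCTL (-1.80, SE 0.41, limma adjusted p = 0.000176, GC-corrected value -1.13). In each of the 3 the lower siCTL library stood above the higher siG3BP1 library by a wide margin. ATR itself had 153 and 174 in siG3BP1, against 428 and 417 in siCTL (-1.37, SE 0.34, limma adjusted p = 0.000512), and its value after GC correction was -0.06.

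CHEK1, the effector kinase downstream of ATR, RAD17, which loads the checkpoint clamp, and HUS1, a subunit of that clamp, fell by 1.41, 1.12 and 0.85 on the log2 scale. Their GC-corrected values were -0.48, -0.06 and -0.18. RAD9A, another subunit of the clamp, went the other way, with 92.4 and 56.5 normalized reads in siG3BP1, against 35.1 and 41.1 in siCTL (log2 fold change 0.92, SE 0.40, limma adjusted p = 0.0397). The corrected value of RAD9A was 0.02, and without siG3BP1 A its fold change was 0.57. Its call was also lost with total-read scaling (limma adjusted p = 0.242), with TMM scaling (limma adjusted p = 0.0582), with a minimum mean of 50, with no filter and with DESeq2 on the recovered reads (adjusted p = 0.1001). CHEK2, the effector kinase downstream of ATM, did not pass, with 51.7 and 62.3 in siG3BP1 and 78.2 and 66.8 in siCTL (-0.35, GC-corrected value -0.41). ATRIP, the partner of ATR, was under the filter, with 2.20 and 2.46 in siG3BP1 and 3.19 and 2.45 in siCTL, and 26.7% of its exonic bases also lie in TREX1.

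Homologous recombination held the gene with the lowest fold change. Of its 10 genes 9 were tested, and 6 fell (66.7%), none rose and 3 did not pass, with a median of -1.01. The shares over all genes tested were 30.5% lower and 25.9% higher. EXO1 (chr1:241847967-241895148), an exonuclease that resects broken ends, had 6.60 and 6.55 normalized reads in siG3BP1, against 52.7 and 41.7 in siCTL. These values stand for 6 and 8 reads in siG3BP1 A and B, against 66 and 68 reads in siCTL A and B. The log2 fold change was -2.74 (SE 0.52, limma adjusted p = 9.46e-06), and -2.10 after GC correction (adjusted p = 0.0628). It lay between -2.91 and -2.57 when any 1 library was left out. The GC content of EXO1, 44.2%, was close to that of HUS1 (44.0%), CLSPN (44.1%) and RNF168 (44.4%). The log2 fold changes of these genes were -0.85 for HUS1, -1.80 for CLSPN and -1.57 for RNF168.

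BRCA1 and BARD1 pair as a ubiquitin ligase, PALB2 links BRCA1 to BRCA2, and BRCA2 is a mediator of homologous recombination. BRCA1 had 28.6 and 20.5 normalized reads in siG3BP1, against 101 and 91.3 in siCTL (log2 fold change -1.96, SE 0.41, limma adjusted p = 4.09e-05, GC-corrected value -1.14). BRCA2 had 5.50 and 9.01 in siG3BP1, against 26.3 and 42.3 in siCTL (-2.17, SE 0.54, limma adjusted p = 0.000499, GC-corrected value -0.88). PALB2 had 55.0 and 80.3 in siG3BP1, against 179 and 151 in siCTL (-1.30, SE 0.36, limma adjusted p = 0.00162, GC-corrected value -0.49). The groups did not overlap in any of these genes. BARD1 and RAD51C also fell, by 1.01 and 0.86, and both had a positive value after GC correction, 0.24 and 0.23.

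The remaining recombination genes did not pass or were not tested. RAD52, an annealing protein, and RAD54L, a motor protein of recombination, had overlapping groups and fold changes of -0.18 and 0.01 (GC-corrected values -0.50 and -0.59). XRCC3 had 101 and 72.1 normalized reads in siG3BP1 and 56.7 and 44.7 in siCTL, and did not pass (log2 fold change 0.76, SE 0.38, limma adjusted p = 0.0781, GC-corrected value -0.14). Of its exonic bases 76.7% lie opposite a gene on the other strand, the largest such share among the 48 genes. The libraries were stranded, but whether the counts used the strand is not stated. XRCC2 was under the filter, with 3.30 and 4.10 in siG3BP1 and 11.2 and 14.7 in siCTL.

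All 3 helicase genes fell, where 30.5% of all genes tested fell. Their GC contents ran from 38.1 to 41.8%. Of all tested genes, 81.3% fell below 40% GC and 60.7% between 40 and 45%. WRN, the RecQ helicase lost in Werner syndrome, had 66.0 and 95.9 normalized reads in siG3BP1, against 217 and 259 in siCTL (log2 fold change -1.57, SE 0.35, limma adjusted p = 0.000128, GC-corrected value -0.34). BLM, the RecQ helicase lost in Bloom syndrome, had 8.80 and 4.92 in siG3BP1, against 17.6 and 22.7 in siCTL (-1.53, SE 0.58, limma adjusted p = 0.0197, GC-corrected value -0.57). BRIP1, a helicase bound to BRCA1, had 13.2 and 17.2 in siG3BP1, against 34.3 and 39.8 in siCTL (-1.27, SE 0.48, limma adjusted p = 0.0182, GC-corrected value -0.03). BLM had the lowest mean of the 45 tested genes, 13.5 normalized reads over the 4 libraries, and neither BLM nor BRIP1 passed with DESeq2 on the recovered reads.

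Of the 6 end-joining genes, 4 fell (66.7%), none rose and 2 did not pass, with a median log2 fold change of -1.03. The shares over all genes tested were 30.5% lower and 25.9% higher. LIG4, the ligase of the pathway, had 38.5 and 54.1 normalized reads in siG3BP1, against 122 and 149 in siCTL (log2 fold change -1.55, SE 0.37, limma adjusted p = 0.000333, GC-corrected value -0.47). DCLRE1C, the nuclease Artemis, had 15.4 and 41.8 in siG3BP1, against 80.6 and 86.4 in siCTL (-1.70, SE 0.41, limma adjusted p = 0.000363, GC-corrected value -0.73). The siG3BP1 libraries of DCLRE1C were far apart, and its fold change was -0.99 without siG3BP1 A. PRKDC, the catalytic subunit of the DNA-dependent protein kinase, had 3427 and 5550 in siG3BP1, against 7576 and 7550 in siCTL (-0.79, SE 0.33, limma adjusted p = 0.0323), a GC-corrected value of 0.00033, and -0.45 without siG3BP1 A.

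Of the 2 subunits of Ku, the ring that threads onto broken ends, XRCC5 fell and XRCC6 did not pass. XRCC5 had 1850 and 3043 normalized reads in siG3BP1, against 5566 and 5802 in siCTL (log2 fold change -1.26, SE 0.33, limma adjusted p = 0.00102, GC-corrected value -0.46). XRCC6 had 6279 and 5894 in siG3BP1 and 4770 and 4757 in siCTL (0.35, SE 0.33, limma adjusted p = 0.354, GC-corrected value 0.14). Their GC contents were 43.0 and 49.7%, and the difference between them was not tested. Per kb of annotated exon, XRCC6 averaged 1876 normalized reads in siG3BP1 and 1468 in siCTL, the highest levels among the 48 genes, and XRCC5 averaged 448 and 1040. XRCC4, the partner of LIG4, had the lowest GC content of the 48 genes (35.2%) and overlapping groups, with 31.9 and 24.6 in siG3BP1 and 22.4 and 27.6 in siCTL. Its fold change was 0.17 (SE 0.47, limma adjusted p = 0.764), where 81.3% of all tested genes under 40% GC fell, and 1.49 after GC correction (adjusted p = 0.0868).

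The Fanconi genes were mixed. Of the 10, 9 were tested, and 3 fell (33.3%), 1 rose (11.1%) and 5 did not pass, with a median log2 fold change of -0.53. The share that fell was near that over all genes tested, of which 30.5% fell and 25.9% rose. FANCI, which is ubiquitinated together with FANCD2, had 46.2 and 118 normalized reads in siG3BP1, against 227 and 180 in siCTL (log2 fold change -1.44, SE 0.35, limma adjusted p = 0.000436, GC-corrected value -0.53). FANCM, the motor protein that anchors the core complex to DNA, had 9.90 and 17.2 in siG3BP1, against 24.7 and 48.4 in siCTL (-1.37, SE 0.49, limma adjusted p = 0.0130, GC-corrected value -0.08). FANCF, an adaptor of the core complex, had 34.1 and 46.7 in siG3BP1, against 75.8 and 82.1 in siCTL (-0.98, SE 0.39, limma adjusted p = 0.0273, GC-corrected value -0.26). Single libraries weighed on these values, since the fold change was -0.77 for FANCI without siG3BP1 A and -0.90 for FANCM without siCTL B.

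FANCE, the core subunit that binds FANCD2, rose, with 165 and 129 normalized reads in siG3BP1, against 74.2 and 86.4 in siCTL (log2 fold change 0.86, SE 0.36, limma adjusted p = 0.0314, GC-corrected value 0.23). Its call was lost with total-read scaling (limma adjusted p = 0.235), with no filter, with edgeR (adjusted p = 0.0506) and with DESeq2 on the recovered reads (adjusted p = 0.0596). FANCL, the ubiquitin ligase of the complex, FANCD2, its substrate, and the core subunits FANCC, FANCA and FANCG did not pass, at -0.81, -0.53, -0.26, 0.26 and 0.63. Their GC-corrected values were 0.49, 0.21, 0.05, -0.48 and 0.04. FANCG had 140 and 134 in siG3BP1 and 86.2 and 89.5 in siCTL, without overlap. FANCB, a core subunit on the X chromosome, was under the filter, with 4.40 and 3.28 in siG3BP1 and 16.0 and 15.3 in siCTL.

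POT1 binds the single-stranded end of the telomere and keeps ATR from being activated there. It fell, with 23.1 and 21.3 normalized reads in siG3BP1, against 87.8 and 89.5 in siCTL (log2 fold change -1.97, SE 0.41, limma adjusted p = 4.85e-05, GC-corrected value -0.68). The 2 libraries of each group were close together, and POT1 lay between -2.03 and -1.92 when any 1 library was left out.

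The genes whose transcripts are known to peak in S or G2 phase were counted apart. Of these 14 genes 12 were tested, and 9 fell (75%), none rose and 3 (RAD54L, FANCA and FANCD2) did not pass, with a median log2 fold change of -1.43. Of the 33 other tested genes, 20 fell (60.6%), 2 rose (6.06%) and 11 did not pass, with a median of -0.98, and the difference between these sets was not tested. Of 22 markers of cycling cells, 10 fell (45.5%), 1 rose (4.55%) and 11 did not pass, with a median of -0.75. Over all genes tested, 30.5% fell and 25.9% rose. The cyclin gene CCNA2 had 9.90 and 30.3 normalized reads in siG3BP1, against 89.4 and 57.6 in siCTL (41.9% GC, log2 fold change -2.01, GC-corrected value -1.07). E2F1, an activator of S-phase genes, had 244 and 125 in siG3BP1, against 92.6 and 81.5 in siCTL (61.6% GC, log2 fold change 1.01, GC-corrected value 0.10). The part of cycling cells in the fall of the repair genes was not tested.

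Other genes of the same pathways were counted in the same fit. Of 77 further genes 74 were tested, and 26 fell (35.1%), 17 rose (23.0%) and 31 did not pass, with a median log2 fold change of -0.23. These shares were near those over all genes tested, 30.5% and 25.9%. The lowest were RECQL, a RecQ helicase (-2.06), RIF1, which acts with TP53BP1 (-1.85), and APLF, an end-joining factor (-1.77). The highest were FAAP20, a Fanconi core component (1.29), ERCC1, a subunit of a nuclease of excision and crosslink repair (1.21), and BABAM1, a scaffold of a BRCA1 complex (1.16). The GC contents were 37.7, 37.8 and 42.4% for the first 3 and 60.4, 56.0 and 55.9% for the last 3.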

How the data were processed

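Total RNA of senescent WI-38 cells was sequenced in 4 libraries, 2 per group. According to the study's methods, the authors trimmed reads with Trimmomatic 0.35, aligned them with STAR to GRCh38 and a Gencode annotation, and divided the counts of each gene by size factors from DESeq2 1.22.1. They also ran RSEM, whose output was not used here. The submitters' notes list TopHat2 2.0.10 and mouse builds without a role. The deposited values are a signal, reads per gene divided by the size factor of the library (0.910 and 1.22 in siG3BP1, 1.25 and 1.63 in siCTL), and 100% of them gave whole reads at a tolerance of 1e-06 reads. A supplementary sheet heading calls them TPM, which they are not. The authors' own comparison columns (fold changes and p-values) were not used.

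Genes with a mean of at least 10 (13422 of 58219) were tested on log2(value + 0.5) with limma 3.58.1 (R 4.3.3, two-sided, mean-variance trend). The p-values were adjusted by the Benjamini-Hochberg method, and the threshold was 0.05. The recovered reads went only into alternatives, DESeq2 1.42.0 and edgeR 4.0.16, which called 4298 genes lower and 3145 higher. Other alternatives were pseudocounts, filters, scalings, protein-coding genes only, no trend, a replicate block, corrections for GC content and exonic length (a loess trend with span 0.3, subtracted from the deviations of each library from gene means) and each library left out. Exonic GC content, length and overlaps came from Gencode on GRCh38, a later release than the authors', with 57392 of 58219 identifiers matched and a GC value for 99.46% of tested genes. The fits were also run on simulated reads that, unlike these data, had few changed genes, no GC trend and equal replicates. That run therefore does not bear on the GC trend or on the unequal siG3BP1 libraries. Depth limits precision: where a gene has no read in a library, up to 3 reads remain possible by counting error alone.

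The genes of the set and the gene lists were chosen with earlier results of these data known. Every gene of the set is named under its role. Full statistics are given for G3BP1, for the 4 genes of each role with the smallest p among those that passed, and for genes that rose. Genes under the filter get each library's value. Of the further pathway genes, the 3 lowest and 3 highest that passed are named. Values of further genes, such as XRCC4, XRCC6, RAD50, CCNA2 and E2F1, were added after they were seen. Some results of the listed genes are not reported here.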

Additional observations from a re-analysis of the deposited data

How the results depend on the processing

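The number of repair genes that fell stayed between 20 and 30 (29 as reported) under other pseudocounts, filters, scalings and tests and length correction. After GC correction 0 fell, in a fit that also estimated the spread differently. With the letter A or B as a replicate block 25 fell and 1 rose, when 27.3% of all genes fell and 17.7% rose. FANCE, HUS1, PRKDC, RAD51C and RNF8 did not pass in that fit. With GC correction and the replicate block 9 fell and 1 (XRCC4) rose, when 14.4% of all genes fell and 14.7% rose. The study describes repeats in which each condition had its own control, without saying what the letters mark, the deviations of siG3BP1 A and siCTL A from their group means had a correlation of 0.30, and 2 pairs cannot establish a pairing. The number that rose (2 as reported) was 1 with a minimum mean of 50, TMM scaling and edgeR. It was 0 with no filter, total-read scaling, DESeq2 and GC correction. With quantile normalization and length correction it was 5, where 27.8% and 24.1% of all genes rose. With 1 library left out, every call was lost without siCTL A or without siCTL B, and some calls changed without siG3BP1 A or B. The cause was not tested. Over all genes 4339 were lower and 636 higher with total-read scaling, 3540 and 3727 with quantile normalization, and 4095 and 3481 as reported.

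GC correction, with or without the block, changed the sign of BARD1 (0.24), FANCA (-0.48), FANCC (0.053), FANCD2 (0.21), FANCL (0.49), PRKDC (0.00033), RAD51C (0.23), RAD54L (-0.59) and XRCC3 (-0.14). Quantile normalization changed that of CHEK2 (0.0057), FANCC (0.071), RAD52 (0.20) and XRCC6 (-0.0066), total-read scaling that of FANCA (-0.072), RAD54L (-0.31) and XRCC4 (-0.15), and length correction that of FANCC (0.33), TP53BP1 (0.0040) and XRCC4 (-0.038). RAD54L was -0.064 with TMM scaling and -0.068 with edgeR. With 1 library left out, FANCC ranged from -0.53 to 0.020, RAD54L from -0.17 to 0.18 and XRCC4 from -0.014 to 0.35. Depth limits the lowest genes, such as EXO1 with 6 reads in siG3BP1 A.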

Other observations

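A few genes stood away from their GC range, all chosen after their values were seen. RRM2, a subunit of ribonucleotide reductase, and MKI67, a marker of proliferation, had GC contents of 48.8 and 48.2%, where 18.3% of all tested genes fell. RRM2 had 117 and 172 normalized reads in siG3BP1, against 465 and 343 in siCTL, and MKI67 had 133 and 169, against 462 and 377. Their log2 fold changes were -1.49 and -1.47, and after GC correction -1.59 and -1.49 (adjusted p = 0.0628 from limma for each). In the other direction, BRE, a scaffold of the same BRCA1 complex as BABAM1, had 882 and 698 in siG3BP1, against 365 and 409 in siCTL, at 46.7% GC (log2 fold change 1.02, with a limma adjusted p of 0.0646 after GC correction). UBE2T, the ubiquitin-conjugating enzyme that works with FANCL, and DNA2, a nuclease of end resection, lay at 39.9 and 37.8% GC. Below 40% GC 81.3% of all tested genes fell. UBE2T and DNA2 did not pass, at -0.06 and -0.23. Their GC-corrected values were 1.07 and 1.02 (limma adjusted p = 0.0705 and 0.0871).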
